A study of Mus musculus with 3 samples.

Results

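The binding of lipopolysaccharide (LPS) and its sensing by Toll-like receptors were described in the choroid plexus epithelium (CPE) through 10 genes: Lbp, Bpi, Cd14, Ly96, Tlr2, Tlr3, Tlr4, Tlr7, Myd88 and Ticam1. Their probes were all non-control probes that carry the symbol of a listed gene in the scanner files, which gave 13 of the array's 41174 probes and 10 of its 27845 gene names. Tlr3, Tlr4 and Ticam1 had 2 probes each and the other genes 1. The CPE covers the choroid plexus in the brain ventricles, makes cerebrospinal fluid and separates it from the blood.

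LPS is a glycolipid of the outer membrane of Gram-negative bacteria. LPS-binding protein (Lbp) takes it up in fluids and passes it to Cd14, which loads it onto the complex of Tlr4 and its coreceptor MD-2, the product of Ly96. Toll-like receptors of the cell surface and of endosomes signal through the adaptor Myd88, through Ticam1 (also called TRIF) or through both, toward NF-kB, inflammatory cytokines and type I interferon.

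The arrays measured RNA of 3 healthy C57BL/6 mice of 18 to 21 weeks of age, from which CPE cells of the lateral ventricles had been cut by laser from 20 µm brain cryosections. The RNA was amplified and labelled with the red dye Cy5, and every array carried the same C57BL/6 reference in the green dye Cy3, RNA of the eye's choroid and retinal pigment epithelium (RPE). The 3 arrays form 1 group of 3 mice, and the design compares CPE with the reference on each array. The dyes were not swapped, so a dye bias of a probe stays in its ratio, and the reference was 1 RNA whose own biological spread is not measured.

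The array of mouse 3 stood apart. Its median CPE background was 363 intensity units, against 81.2 and 82.6 in mice 1 and 2. The share of probes well above background in the CPE channel, by the scanner's own flag, was 58.5% in mouse 1, 46.0% in mouse 2 and 85.6% in mouse 3. Over all 3 arrays 44.9% of probes were well above background in CPE and 61.5% in the reference. A probe that was so in either channel was tested with limma, and the threshold for its ratio was 2-fold together with an adjusted p below 0.05. Of the 25841 probes tested, 17.3% were past it, 7.09% as higher and 10.2% as lower in CPE. The CPE and RPE lists followed the labels. Of 10 tested CPE markers 9 were higher in CPE, with a median log2 ratio of 2.50. Of 7 RPE and melanocyte markers 6 were lower, with a median of −5.84. Though the reference is named as RPE and choroid, 6 of 6 photoreceptor markers were lower in CPE too, with a median of −4.88. Their summed level in the reference, 1 probe per gene, was 159290 to 165358, against 180629 to 191126 for RPE and melanocyte markers. The reference thus also held RNA of photoreceptor genes. All 10 CPE markers on the array ranked in the high class of the CPE.

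In the CPE, Lbp had the highest signal of the 10 genes, and it and Ticam1 were the genes past the threshold against the reference, both as higher in CPE. Of the 13 probes, 11 were tested, 3 were higher (27.3%, of which the Ticam1 probes are 2) and 0 were lower, though 1 (Ly96) was lower at an unadjusted p under 0.05. Counted by gene with the brightest probe, 2 of 9 tested genes were higher, against 8.91% of the 15411 gene symbols counted the same way. The median log2 ratio was 0.32 over the 11 tested probes and −0.01 over the 9 genes, and −0.04 over all tested probes. The genes were chosen with these results known, so the counts describe the set and are no test of it. By rank of the mean CPE signal over all probes, 1 gene was in the high class (above the 90th percentile, which holds 10% of probes), 7 were moderate (50th to 90th) and 2 were low (10th to 50th). Because hybridisation differs between probes, the rank of a gene is not the abundance of its transcript relative to other genes.

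**Figure D1:**
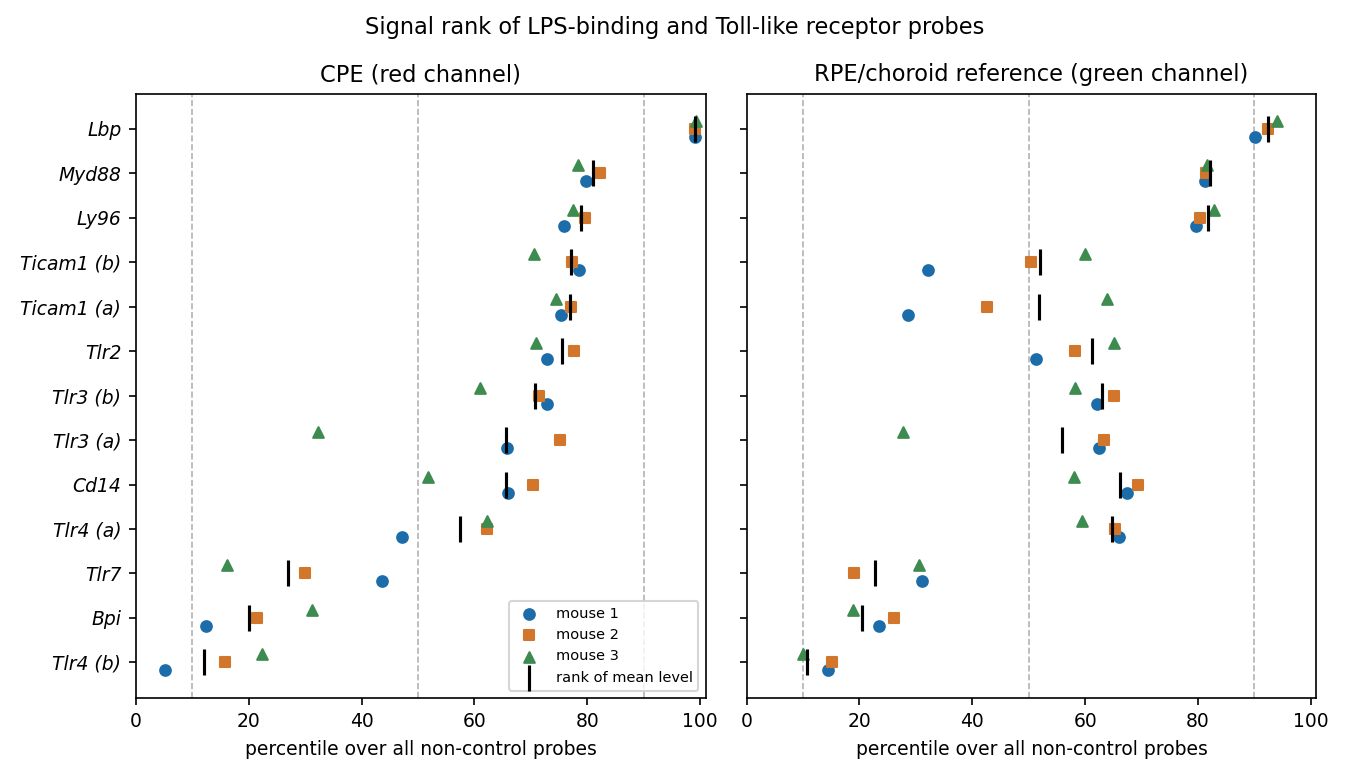
Percentile of each probe of the 10 genes among all probes in the CPE channel (left) and in the reference channel (right), 1 point per mouse and a bar at the percentile of the mean level; dashed lines mark the 10th, 50th and 90th percentiles. Genes with 2 probes are marked (a) and (b); Lbp lies above the 90th percentile in every CPE sample and every reference channel, and the probes of Tlr7, Bpi and Tlr4 (b) have the lowest mean ranks in both.

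Lbp is an acute-phase protein of plasma best known from the liver. Its probe A_51_P454008 has coordinates chr2:158019847-158023389 (mm8, plus strand), which run over 3543 bp, where most other probes of the set run over 60. The CPE intensity of the spot was 21268 in mouse 1, 13604 in mouse 2 and 17768 in mouse 3, which was 265, 167 and 49.7 times its background. The reference intensity was 1232, 1602 and 1640 on the same arrays. All 3 CPE values lay far above all 3 reference values, and the lower factor over background in mouse 3 went with the higher background of that array.

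On the log2 scale the CPE level of Lbp was 14.08 ± 0.19 (SD, n = 3), at percentile 99.1, 99.1 and 99.3 in the 3 mice and 99.2 for the mean. Lbp was also bright in the reference, at percentile 90.1, 92.5 and 94.0. The log2 ratio of CPE over reference was 2.93, 2.38 and 2.64 in mice 1, 2 and 3. The mean of 2.65 (SE 0.17, 95% interval 2.26 to 3.04), a 6.28-fold difference, had an adjusted p of 3.73e-05 by limma. It was the largest difference of the 10 genes and was past the threshold under every alternative tried, with means between 2.51 and 3.44.

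Among the genes whose levels were most like those of Lbp were Slco1c1, Fxyd1, Cdkn1c and Cfl1, by the smallest Euclidean distance over 6 normalized log2 levels (3 CPE, 3 reference). The distances ran from 0.54 for Slco1c1 to 0.72 for Cfl1. Slco1c1 encodes a transporter of organic anions, Fxyd1 a regulator of the sodium pump, Cdkn1c a cell cycle inhibitor and Cfl1 an actin-severing protein. These 4 ranked in the high class and were past the threshold, with mean log2 ratios from 2.15 for Cfl1 to 2.93 for Slco1c1. They were picked on these same levels, so ranks and ratios near those of Lbp follow from the choice and are no separate result.

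Lbp and Bpi are related genes that lie next to each other on chromosome 2. Bpi encodes the bactericidal/permeability-increasing protein, an LPS-binding protein of neutrophil granules. Its probe A_51_P509469 (chr2:157975895-157975954, mm8, plus strand) had CPE intensities of 83.3, 83.5 and 512 against spot backgrounds of 82.2, 84.9 and 373. The reference intensities were 129, 130 and 274. In both channels only the array of mouse 3 had Bpi well above background, so the probe was not tested. Its log2 ratios were −0.15, −0.05 and 0.28, of mixed sign, and it ranked at percentile 20.0 in CPE and 20.4 in the reference.

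In the order of protein-coding genes in RefSeq (assembly GRCm38.p6), the 3 genes before Lbp are Tgm2, D630003M21Rik and Bpi, and the next 3 after it are Ralgapb, Adig and Arhgap40. Ralgapb and Arhgap40 had no probe by name here. Tgm2, the tissue transglutaminase, was lower in CPE by its brightest probe, with log2 ratios of −1.40, −1.37 and −1.08 and a mean of −1.29 (SE 0.16, adjusted p 0.000698 by limma), while another of its probes had a mean of −0.02. D630003M21Rik, at percentile 47.8, and Adig, at percentile 24.6, were not tested.

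**Figure D2:**
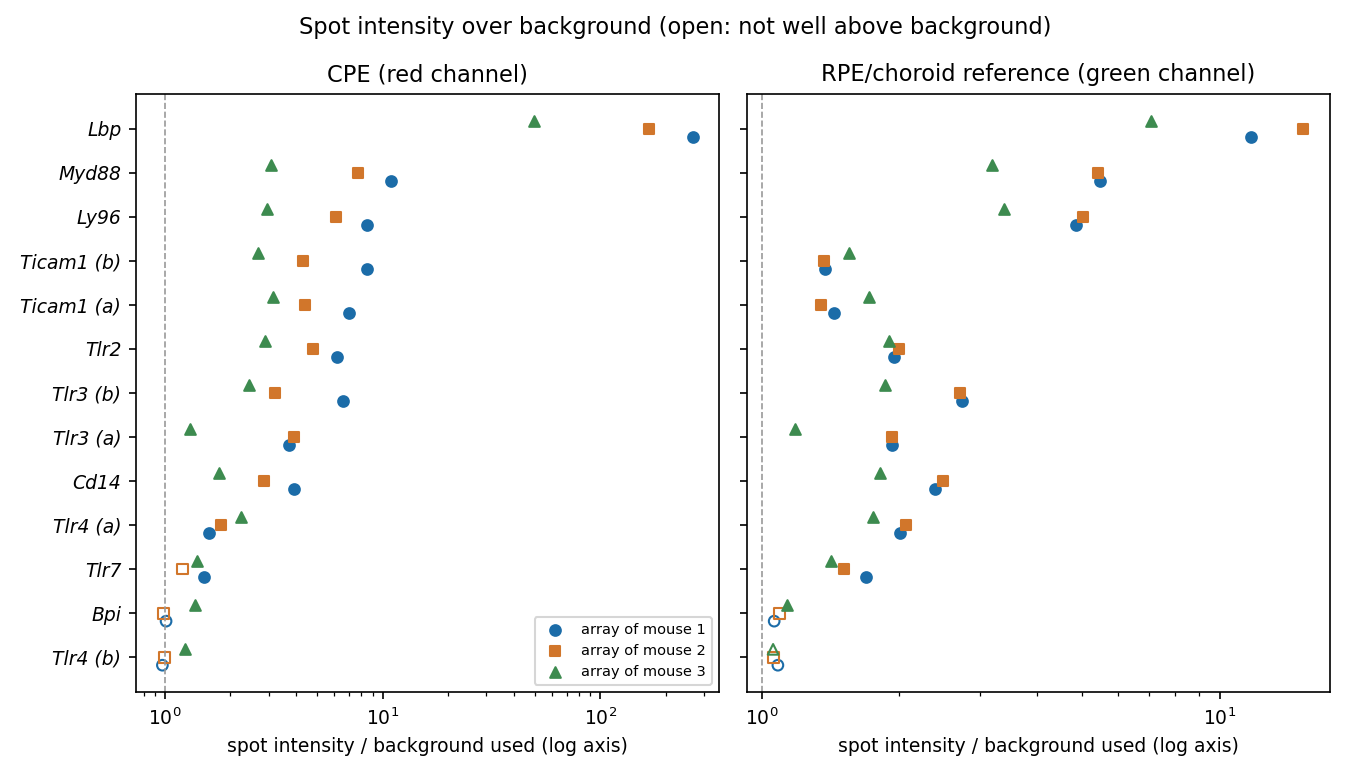
Intensity of each spot divided by its background in the CPE channel (left) and the reference channel (right), on log axes, 1 point per array; open symbols are spots not well above background. The CPE spot of Lbp was 49.7 to 265 times its background, the Ticam1 spots were 1.35 to 1.71 times background in the reference, and the Bpi and Tlr4 (b) spots lay between 0.974 and 1.37 in both channels.

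Cd14 and Ly96, the proteins that take LPS from Lbp to Tlr4, were detected above background on each array in CPE and in the reference alike, in both at moderate rank. The Cd14 probe A_51_P172853 had CPE intensities of 325, 241 and 687 and reference intensities of 293, 306 and 444. Its ranks in the CPE were 65.9, 70.3 and 51.7, lowest in mouse 3. The log2 ratios were −0.17, −0.03 and −0.42, with a mean of −0.20 (SE 0.16, 95% interval −0.58 to 0.17) that was not past the threshold (adjusted p 0.350 by limma).

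Ly96, which encodes MD-2, the protein that holds the lipid part of LPS, had CPE intensities of 684, 502 and 1068 and reference intensities of 547, 556 and 800 with probe A_51_P476601 (chr1:16691422-16694694, mm8, plus strand). Its CPE level of 9.49 ± 0.13 (SD, n = 3) on the log2 scale put it at percentile 78.8. The log2 ratios were −0.36, −0.23 and −0.64. Their mean of −0.41 (SE 0.16, 95% interval −0.78 to −0.04) had an adjusted p of 0.0793 by limma, so the difference was under 2-fold and missed the threshold. The sign of Cd14 and Ly96 turned when arrays were centred on their median in place of loess, which gave means of 0.047 and 0.053.

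Tlr4, the receptor of LPS, was close to background in CPE. The probe A_51_P300806 (chr4:66329051-66329109, mm8, plus strand), named (a) in the plots, had CPE intensities of 132, 151 and 855, which were 1.60, 1.81 and 2.23 times background, and reference intensities of 243, 251 and 425. All 6 spots were well above background by the scanner's flag. The log2 ratios of −0.78, −0.18 and 0.10 differed in sign between mice, and their mean was −0.29 (SE 0.20, 95% interval −0.75 to 0.18, adjusted p 0.292 by limma). It ranked at percentile 57.5 in CPE, from 47.2 in mouse 1 to 62.3 in mice 2 and 3, and in the low class at 44.9 when 1 value per gene was ranked.

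A further probe with the symbol Tlr4, A_52_P24230 (chr4:66415883-66415942, mm8, plus strand), lies 86832 bp from the former. The RefSeq span of Tlr4 is 19031 bp (GRCm38.p6), and the accession the file gives this probe, unlike those of the other 12, had no match in the RefSeq table. Its CPE intensities were 78.1, 81.4 and 443, and it was well above background on 1 CPE array, that of mouse 3, and on 0 reference arrays. It was not tested and was not used as a measure of Tlr4.

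Tlr2, the receptor of bacterial lipoproteins, was the Toll-like receptor with the largest mean ratio. Its probe A_51_P452629 (chr3:83922349-83922408, mm8, minus strand) had CPE intensities of 497, 394 and 1041 and reference intensities of 216, 219 and 447. On each array the raw CPE intensity was above the raw reference intensity, before correction for background and dye. The same held for Myd88, whose log2 ratios were negative on all 3 arrays, so raw intensities alone do not show a higher level. The reference spots of Tlr2 were 1.90 to 2.00 times their background. The CPE level without background correction was 9.19 ± 0.02 (SD, n = 3) on the log2 scale, at percentile 75.5. That was the smallest spread of the 13 probes on this scale. With background correction and loess the SD was 0.33 and no longer the smallest.

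The log2 ratio of Tlr2 was 0.94 in mouse 1, 1.21 in mouse 2 and 0.35 in mouse 3, lowest on the array with the high background. The mean of 0.83 (SE 0.20, 95% interval 0.37 to 1.29), a 1.78-fold difference, had an adjusted p of 0.0132 by limma and did not reach 2-fold. The scanner's own log ratio put it past the threshold (1.28, adjusted p 0.0352), as did median centring (1.10, adjusted p 0.0233) and leaving out mouse 3 (1.07, adjusted p 0.00358). Without mouse 1 the mean was 0.78 (adjusted p 0.0773) and without mouse 2 it was 0.64 (adjusted p 0.0484), both under 2-fold. Set against Tlr4 (a), the log2 ratio of Tlr2 was higher by 1.72, 1.39 and 0.25 in the 3 mice, a mean of 1.12 ± 0.77 (SD, n = 3). This pair was chosen after its values were seen, and with 3 arrays an exact sign-flip test cannot give a two-sided p below 0.25.

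Tlr3, the endosomal receptor of double-stranded RNA, was measured by A_52_P85174 (chr8:46895192-46895251, named (a) in the plots) and A_51_P291906 (chr8:46895472-46895531, named (b); both mm8, minus strand), whose starts lie 280 bp apart. The log2 ratios were 0.12, 0.74 and 0.09 with the former and 0.56, 0.33 and 0.07 with the latter. All 6 values were above 0, but the order of the mice differed between the probes. Both means were 0.32, with an SE of 0.18 and an adjusted p of 0.215 by limma for the former and an SE of 0.16 and an adjusted p of 0.160 for the latter, so neither was past the threshold. In CPE the probes ranked at percentile 65.6 and 70.7, and the former fell to percentile 32.3 in mouse 3.

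Tlr7, the endosomal receptor of single-stranded RNA, had CPE intensities of 113, 88.9 and 409 and reference intensities of 137, 117 and 294 with probe A_51_P371710 (chrX:162649362-162649421, mm8, minus strand). It was well above background in CPE in mice 1 and 3 and in the reference on all 3 arrays. The log2 ratios of 0.31, 0.19 and −0.51 were of mixed sign and averaged −0.01 (SE 0.20, 95% interval −0.47 to 0.46, adjusted p 0.985 by limma). Its CPE level ranked at percentile 26.9, in the low class.

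Myd88, the adaptor of most Toll-like receptors and of the receptors of interleukin-1, ranked highest of the set after Lbp, at percentile 81.1. Its probe A_52_P282762 (chr9:119184902-119184961, mm8, minus strand) had CPE intensities of 887, 621 and 1121 and reference intensities of 609, 603 and 746. The log2 ratios of −0.21, −0.09 and −0.43 had a mean of −0.24 (SE 0.16, 95% interval −0.61 to 0.12, adjusted p 0.258 by limma), which turned to 0.26 with median centring. In the reference Myd88 ranked at percentile 82.1.

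Ticam1, the adaptor of Tlr3 that Tlr4 also uses from endosomes, was higher in CPE than in the reference. Its probes A_51_P294020 (chr17:55903551-55903610, named (a) in the plots) and A_51_P294017 (chr17:55903571-55903630, named (b); both mm8, minus strand) share 40 bp and are not independent measures. The CPE intensities were 577, 365 and 1186 for (a) and 720, 375 and 1087 for (b). The reference intensities were 170, 160 and 412 for (a) and 183, 181 and 391 for (b). On every array both probes had a higher raw intensity in CPE, before correction for background and dye. The reference spots were at most 1.71 times their background.

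The log2 ratios of Ticam1 were 1.60, 1.78 and 0.77 with probe (a) and 1.72, 1.54 and 0.73 with probe (b), lowest in mouse 3 as for Tlr2. The means were 1.38 (SE 0.22, 95% interval 0.88 to 1.89, adjusted p 0.00228 by limma) and 1.33 (SE 0.22, 95% interval 0.83 to 1.83, adjusted p 0.00260), differences of 2.61-fold and 2.52-fold. Both probes ranked at percentile 77 in CPE, to the nearest whole number, and near 52 in the reference. Without background correction the means were 1.19 and 1.15 and with the scanner's own log ratio 2.43 and 2.47. Tested against a 2-fold difference in place of 0 (limma treat), neither was past the threshold, with adjusted p of 0.601 and 0.776.

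**Figure D3:**
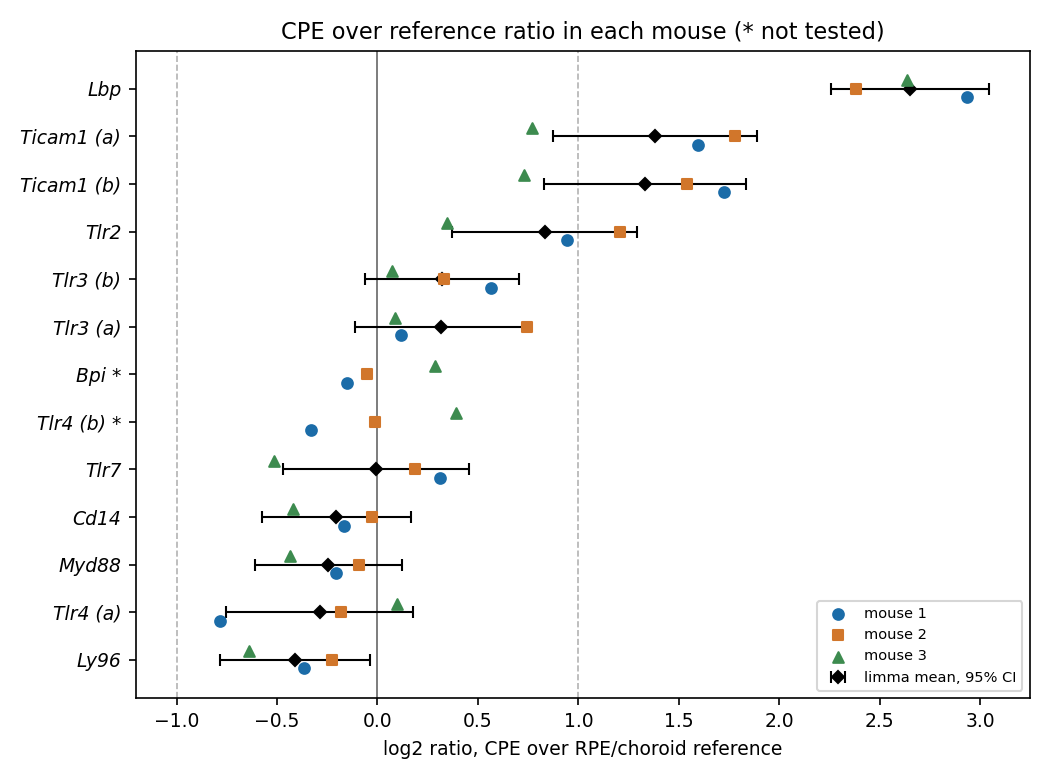
Log2 ratio of CPE over reference for each probe, 1 point per mouse, with the limma mean and its 95% interval for tested probes; dashed lines mark 2-fold and asterisks mark probes that were not tested. Lbp (mean 2.65) and both Ticam1 probes (1.38 and 1.33) lie above 2-fold on average, and mouse 3 gives the lowest ratio for Ticam1, Tlr2, Tlr3, Tlr7, Cd14, Myd88 and Ly96.

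The 2 adaptors differed in their ratios. The log2 ratio of Ticam1 (a) exceeded that of Myd88 by 1.80, 1.87 and 1.20 in mice 1, 2 and 3, with a mean of 1.63 ± 0.37 (SD, n = 3), and that of Ticam1 (b) exceeded it by 1.58 ± 0.39. The difference had the same sign in 3 of 3 mice and kept a mean of 1.33 with median centring. The exact two-sided sign-flip p of 0.25 is the smallest that 3 arrays allow, and this pair too was chosen after its values were seen.

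By CPE level on the log2 scale, Lbp lay 4.37 above Myd88, and Myd88 lay 0.22 above Ly96, each in 3 of 3 mice. From Ly96 through Ticam1, Tlr2, Tlr3 and Cd14 to Tlr4 (a), each probe lay above the next in only 1 or 2 of the 3 mice, so neighbours in that stretch had no order beyond the spread between mice. Probes further apart in it did: Ly96, with a mean level of 9.49, lay above Cd14 (8.45) and Tlr4 (a) (8.03) in 3 of 3 mice. Tlr4 (a) lay 0.70 above Tlr7 in 3 of 3 mice, with a gap that varied between mice by an SD of 0.55.

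Promoters of 5 of the 10 genes (Bpi, Tlr2, Tlr3, Myd88 and Ticam1) matched by symbol in a RefSeq table of GRCm38.p6, which holds 250 bases before and 50 bases after a start site of each gene. For Ticam1 and Myd88 that site is the end of the gene's RefSeq span, and for Tlr2, Tlr3 and Bpi it lies 216, 695 and 178 bp inside the span. They were searched on both strands for the NF-kB consensus, the core of the interferon-stimulated response element (GAAA and GAAA with any 2 bases between) and the GC box GGGCGG. The 3 shown are those of the adaptors, whose ratios differed, and of Tlr2, the receptor with the largest mean ratio. Capitals mark matches of these motifs on the strand shown, on which the gene is read.

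Ticam1, chr17:56276718-56277017, minus strand: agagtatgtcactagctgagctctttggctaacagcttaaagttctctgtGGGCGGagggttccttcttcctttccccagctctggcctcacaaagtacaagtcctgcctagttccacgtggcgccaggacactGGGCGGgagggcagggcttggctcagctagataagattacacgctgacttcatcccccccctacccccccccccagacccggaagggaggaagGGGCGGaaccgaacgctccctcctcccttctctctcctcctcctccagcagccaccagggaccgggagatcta
Myd88, chr9:119339969-119340268, minus strand: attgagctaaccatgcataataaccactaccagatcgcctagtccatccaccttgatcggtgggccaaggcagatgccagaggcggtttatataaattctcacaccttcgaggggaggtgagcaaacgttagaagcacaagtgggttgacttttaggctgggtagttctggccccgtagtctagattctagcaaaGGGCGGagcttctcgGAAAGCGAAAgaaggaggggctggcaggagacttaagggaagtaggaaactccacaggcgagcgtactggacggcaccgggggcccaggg
Tlr2, chr3:83841559-83841858, minus strand: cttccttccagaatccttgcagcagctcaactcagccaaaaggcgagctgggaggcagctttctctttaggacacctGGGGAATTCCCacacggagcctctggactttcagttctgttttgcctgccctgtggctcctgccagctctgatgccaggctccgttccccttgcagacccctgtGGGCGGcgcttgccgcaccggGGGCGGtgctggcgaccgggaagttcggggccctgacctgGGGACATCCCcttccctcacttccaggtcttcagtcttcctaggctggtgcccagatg

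Ticam1 held 3 GC boxes and 0 matches of the NF-kB consensus or of the interferon-stimulated core. Myd88 held 1 interferon-stimulated core, 40 bases before the start site, and 1 GC box. Tlr2 held overlapping matches of the NF-kB consensus from 173 to 163 bases before the start site of the table and another around that site, with 2 GC boxes between them. All of these Tlr2 matches lie inside the RefSeq span of the gene. Of the promoters not shown, that of Tlr3 held 1 NF-kB match and 1 GC box, and that of Bpi held 1 GC box. Of all 32851 promoters in the table, 8.46% held the NF-kB consensus, 3.44% the interferon-stimulated core and 35.7% a GC box. A match describes the letters of the sequence and is no evidence of binding in these cells.

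Around the 10 genes, 7 further lists of the pathway held 69 genes, of which 66 were on the array by name, 45 were well above background in all CPE samples and 55 were tested. Of these 55, 3 were higher in CPE (5.45%) and 4 were lower (7.27%), against 8.91% and 11.3% of all gene symbols tested, and the median log2 ratio was 0.11. Among other LPS and lipid binding proteins, 1 of 6 tested genes was higher and 1 lower. At an unadjusted p under 0.05 by limma 1 was higher and 3 were lower, and the median log2 ratio of this list was −0.56. Pltp, the phospholipid transfer protein of the same family as Lbp and Bpi, had log2 ratios of 3.24, 2.19 and 2.83 and a mean of 2.75 (SE 0.22, adjusted p 9.11e-05 by limma), at percentile 98.4. Cd36, a scavenger receptor for lipids, had a mean of −2.23 (SE 0.19, adjusted p 0.000133).

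Of the other Toll-like receptors, Tlr11, Tlr12 and Tlr13 had no probe by name, 3 of the remaining 5 were tested and 0 were past the threshold by limma, with 0 at an unadjusted p under 0.05 as well. Tlr9, named here after its value was seen, was the 1 of these 5 that all CPE samples showed well above background, at percentile 60.2 and with a mean log2 ratio of −0.28 (SE 0.20). Of 6 tested adaptors and chaperones, 1 was higher: Hsp90b1, which encodes gp96, a chaperone that Toll-like receptors need to fold. Its brightest probe ranked at percentile 99.7 with log2 ratios of 2.10, 2.00 and 1.69 (mean 1.93, SE 0.16, adjusted p 0.000118), while its other probe, at percentile 98.1, had a mean of 0.38 (SE 0.40, adjusted p 0.497). Cnpy3, a partner of gp96 in that folding, was in the high class at percentile 90.3 with a mean of 0.69 (SE 0.16, adjusted p 0.0113), under 2-fold.

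Among 16 tested kinases and ubiquitin ligases, 1 was higher and 2 were lower, with 2 higher and 6 lower at an unadjusted p under 0.05 by limma. Irak1, a kinase that binds Myd88, had log2 ratios of 1.60, 0.72 and 1.08 and a mean of 1.13 (SE 0.20, adjusted p 0.00358 by limma) at percentile 90.6, which fell under 2-fold without mouse 1 (0.90, adjusted p 0.0287). Its other probes had means of 1.09 (adjusted p 0.00689), past the threshold, and 0.86 (adjusted p 0.0123), under 2-fold. Irak2, a kinase of the same family, had ratios of −1.11, −1.24 and −1.22 (mean −1.19, SE 0.15, adjusted p 0.000791). Tab3, which links the kinase TAK1 to ubiquitin chains, had −1.34, −0.79 and −1.56 (mean −1.23, SE 0.19, adjusted p 0.00203). With median centring the means of Irak2 and Tab3 were −0.68 and −0.80 and no longer past the threshold, and with limma treat none of Irak1, Irak2 and Tab3 was past it, each with an adjusted p of 1. Peli1, a ubiquitin ligase of the pathway, was in the high class at percentile 94.2 with a mean of 0.36 (SE 0.17, adjusted p 0.137).

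Of 7 tested transcription factors of the NF-kB and IRF families, 0 were past the limma threshold, with 3 at an unadjusted p under 0.05. Of 9 tested inhibitors, 0 were higher and 1 was lower, with 4 higher and 2 lower at an unadjusted p under 0.05 by limma. The median log2 ratio of this list was 0.18. The inhibitor past the threshold was Tnfaip3, which encodes the NF-kB inhibitor A20. It had log2 ratios of −4.10, −3.81 and −4.09 and a mean of −4.00 (SE 0.16, adjusted p 6.79e-06 by limma), the largest difference from the reference in these lists. Its CPE intensities were 325, 267 and 558 and its reference intensities 2901, 2902 and 3267, and it still ranked at percentile 66.9 in CPE. Nfkbia, the inhibitor that holds NF-kB in the cytoplasm, and Tollip were in the high class at percentiles 95.2 and 94.2, with means of −0.38 (SE 0.20) and 0.40 (SE 0.15) that were not past the threshold. The sign of Nfkbia turned with median centring, to 0.33.

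Of 13 genes on the array that LPS induces in many cells, 5 were well above background in all 3 CPE samples, where 44.9% of all probes were. By class 0 were high, 6 moderate, 6 low and 1 very low, and 0 of 8 tested were past the limma threshold, with 1 at an unadjusted p under 0.05. The median log2 ratio of the 8 was 0.08. Il6, named after its value was seen, was well above background on no array in either channel.

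**Figure D4:**
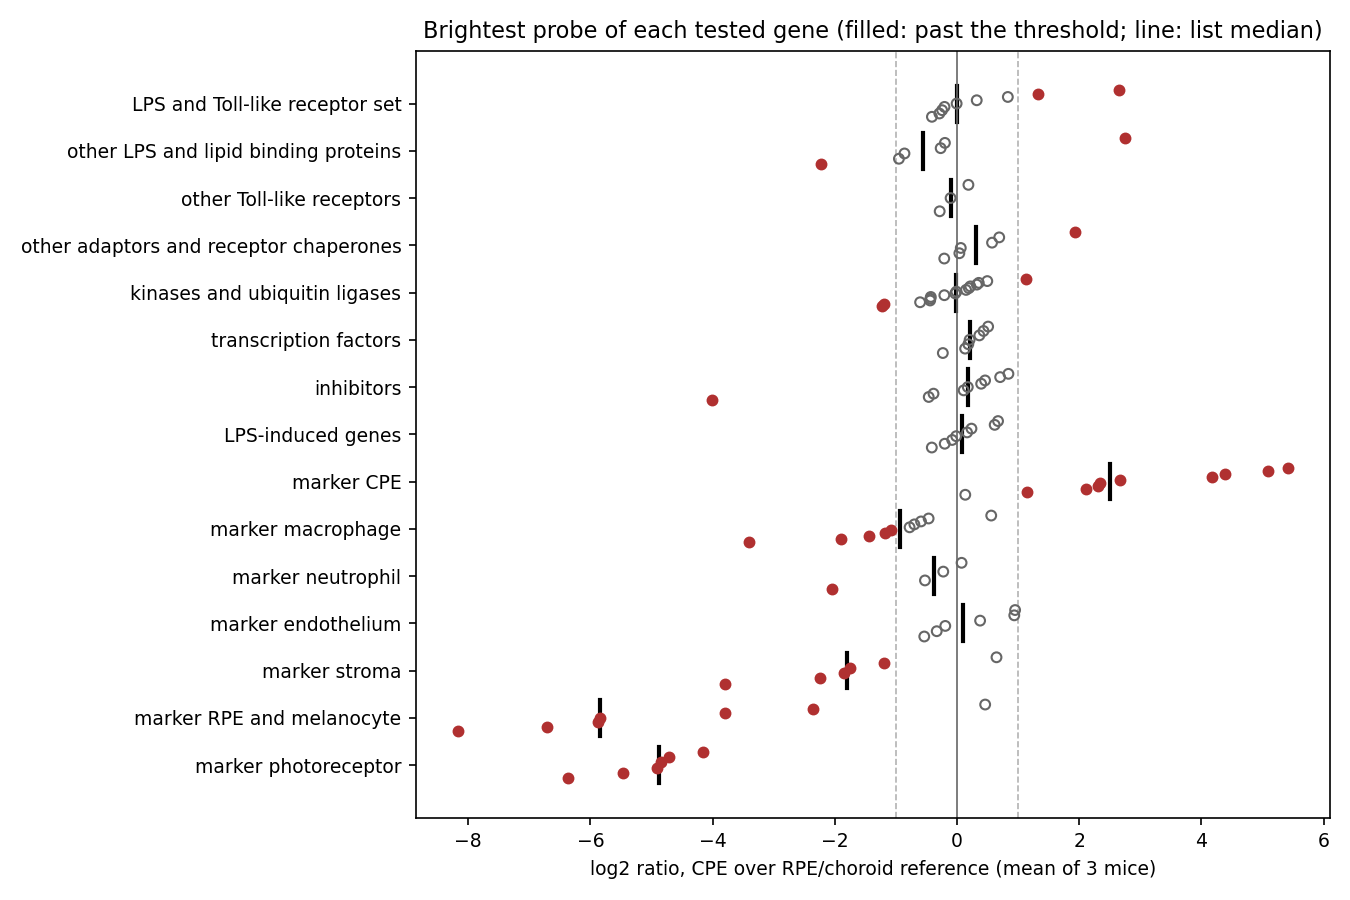
Mean log2 ratio of CPE over reference for the brightest probe of each tested gene, in the set of 10 genes, the 7 further pathway lists and the marker lists of cell types; filled points are past the threshold, vertical bars are list medians and dashed lines mark 2-fold. CPE markers lie on the right with a median of 2.50 and RPE and photoreceptor markers on the left. The medians of the pathway lists run from −0.56 (other LPS and lipid binding proteins) to 0.32 (other adaptors and receptor chaperones).

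Cd14, Ly96, Tlr2, Tlr4, Tlr7 and Myd88 are also expressed by macrophages. Of 11 macrophage markers on the array, 9 were well above background in all 3 CPE samples, 2 of them in the high class (Lyz2 at percentile 97.8 and Csf1r at 90.5), and Cd163 was so in 1 CPE sample. Of the 10 tested, 0 were higher and 5 lower in CPE by limma, and the median log2 ratio was −0.93. An unadjusted p under 0.05 was reached by 1 as higher and by 9 as lower. The summed level of the list, 1 probe per gene, was 9342 to 9975 in CPE and 60426 to 66776 in the reference. For the 10 genes of the set the sums were 15047 to 16516 in CPE, most of it Lbp, and 4479 to 5252 in the reference. Of 7 neutrophil markers 1 was well above background in all 3 CPE samples, and of 4 tested 1 was lower and 0 were higher by limma. With an unadjusted p under 0.05 these counts were 2 lower and 0 higher. Endothelial markers had a median of 0.09 over 6 tested genes, 0 of them past the limma threshold (4 at an unadjusted p under 0.05). In the CPE 2 of these 6 ranked in the high class. Of 6 stromal markers 5 were lower, yet all 6 were well above background in all 3 CPE samples and 5 ranked in the high class. The summed level of the stromal list was 18725 to 21137 in CPE and 116462 to 135273 in the reference. The part of these cells in the values above was not tested, and in bulk RNA fewer cells of a type and less RNA per cell cannot be told apart.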

How the data were processed

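RNA of the CPE of 3 mice (red) and of a common RPE/choroid reference (green) was measured on 3 2-colour Agilent arrays, each on a slide of its own. The deposited scanner tables, made by the authors with Feature Extraction 9.5.3.1, hold spot and background intensity in both channels and a log10 ratio of red over green. The deposited series table, made by the authors in R 2.14.0 with Aquantile normalization in limma, holds log2 values. Its rank correlations over probes with the normalized red channel were 0.9985, 0.9976 and 0.9989, so these are CPE levels, not ratios, and they served as an alternative.

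Here, R 4.3.3 and limma 3.58.1 were used. Control spots had weight 0 in loess and were then dropped with outlier spots, and repeat spots of a probe were averaged. Ratios followed normexp correction (offset 50) and loess within arrays. The model had an intercept alone and a two-sided test, with Benjamini-Hochberg adjustment over 25841 probes. It was tested on simulated data. Levels and classes followed the study's methods: log2 mean red intensity without background correction, Aquantile between arrays, the mean over mice and its percentile over all 41174 probes. The genes of the set and all lists were chosen with earlier results of these data known. Named outside the set are genes past the threshold, genes in the high class, the 5 genes most like Lbp, of which 1 is not reported here, and its neighbours in the genome. Tlr9, Il6, Lyz2, Csf1r, Cd163, Socs1 and Ly86 were named after their values were seen. Probe coordinates are those of the files (mm8). Gene order, spans and promoters came from RefSeq (GRCm38.p6). The number of arrays limits the precision, and the labels number the 3 mice as replicates. Mice 1 and 3 were scanned on the same day and mouse 2 on another, with CPE on both days.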

Additional observations from a re-analysis of the deposited data

How the results depend on the processing

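With 3 mice and 1 RNA as reference, small differences cannot be told from 0, and values near background are not firm. Bpi, Tlr7, both Tlr4 probes and the reference spots of Ticam1 and Tlr2 lie there, as does Tlr3 (a) in mouse 3. The mean log2 ratio of Ticam1 ran from 1.14 to 2.47 over settings and that of Tlr2 from 0.64 to 1.28. The ratios of the 11 tested probes, from 9 genes, gave 118 values under other settings: 107 kept their sign and their side of the threshold, 2 lost and 3 gained it, and 6 changed sign. Removing the probe filter, requiring both channels above background, limma treat and the brightest probe alone left the ratio itself as in the main fit. Under those settings only its p could change, so a kept sign there is no test of it. The signs that turned belonged to values within 2-fold that were not past the threshold. With median centring these were Cd14 (0.047), Ly96 (0.053), Myd88 (0.26) and, of the pathway genes, Nfkbia (0.33). Tlr7 turned without background correction (0.068), with array weights (0.14) and without mouse 3 (0.25), and stayed negative without mouse 1 (−0.16) or mouse 2 (−0.10). Median centring moved the median of all tested probes by 0.13 and the shares higher and lower in CPE from 7.09% and 10.2% to 14.5% and 7.13%. With it, 4 probes of the set and 11 pathway genes were past the threshold, 9 higher and 2 lower, against 7, 3 and 4. Tested against 2-fold (limma treat), 1 probe of the set (Lbp) and 4 pathway genes were past it, 2 higher and 2 lower. Leaving out 1 mouse at a time gave 3 to 4 probes of the set (3 to 4 higher, 0 lower) and 7 to 8 pathway genes, 2 to 4 higher and 4 to 5 lower. Without mouse 3, Tlr2 and the inhibitor Socs1 were gained as higher. Irak1 was lost without mouse 1, and Ly86 was gained as lower without mouse 1 and without mouse 2. Of 111 recomputed ranks, 18 moved by more than the spread between mice. In a ranking of detected probes alone (well above background in all CPE samples), Lbp stayed in the high class, at percentile 98.1, Ly96 and Myd88 in the moderate class, and the other ranked genes fell to the low class. No paired analysis was possible because the samples form a single group, with CPE and reference already compared within each array.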
